A study of Mus musculus with 24 samples.

Results

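The 10 genes described here, Dntt, Rag1, Lck, Lax1, Tox, Ltb, Ccr9, Ccr7, Cd3e and Cd2, mark early lymphoid and T-lineage cells. These genes were picked by name from the 55487 gene IDs counted in every library, with earlier results of these data known. They were followed in sorted mouse HSCs (hematopoietic stem cells, the source of all blood lineages) in 24 RNA-seq libraries that form 3 separate experiments of a study of the pseudouridine synthase PUS10. HSCs overexpressing PUS10 (PUS10-OE, n = 3) were set against vector controls (Vector, n = 3), HSCs in which miR-139, a microRNA, was knocked down (miR139-KD, n = 6) against a non-target control (NTC, n = 6), and libraries labelled Pus10-KO (n = 3) against Pus10-WT (n = 3). The labels give cell type and genotype. Strain, age, the vector, the knockdown reagent and the allele are not given in the sources used here, nor is it stated whether each library is its own animal. The p-values therefore speak of the spread among libraries, part of which may be technical.

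Lymphoid development starts when multipotent progenitors begin to transcribe, at a low level, genes that B and T cells need later. Dntt and Rag1 serve the assembly of antigen receptor genes and come on before lineage choice; Dntt and Rag1 also remain on in early B-lineage cells. Lck, Cd3e, Cd2 and Lax1 belong to the T cell receptor and its signalling, Tox directs T-lineage development, Ltb encodes a membrane-bound cytokine, and the chemokine receptors Ccr9 and Ccr7 guide progenitors to the thymus.

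In miR139-KD libraries Dntt, Lck, Lax1 and Tox were lower than in NTC libraries, by 3.16-fold (Tox) to 8.74-fold (Lck) in mean level, whereas Ltb overlapped between the groups. These 4 passed the edgeR test, as did 1.31% of all genes in the lower direction. Of 12 fits that each left out 1 library, Tox did not pass in 8, Dntt in 2, and Lck and Lax1 in 0. In PUS10-OE and Pus10-KO libraries no member passed the edgeR test against its control, but only 0% and 0.0614% of all genes did. By DESeq2, Dntt and Tox passed in PUS10-OE libraries, as did 1.44% of the genes to which it gave an adjusted p. Cd3e, a chain of the T cell receptor complex itself, had 0 counts in all 24 libraries.

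The sequences before the starts of Dntt, Rag1, Lck and Lax1 are shown first, because in all 4 every miR139-KD library was below every NTC library. The same held for 1.78% of all genes tested. RefSeq (GRCm38.p6) gave a start for 7 of the 10 members, with none for Tox, Ccr7 and Cd2. Each stretch is the 120 bases before the start, 5′ to 3′ on the strand of the gene. The first bases after the RefSeq start of Rag1 were in no GENCODE transcript of Rag1. For the other printed stretches they were in a GENCODE transcript of the gene. Capitals mark matches, on either strand, to the core letters of sites for RUNX, ETS, Ikaros, GATA and E2A-type E-box factors. The Dntt stretch lies at chr19:41029155-41029274 (plus strand), that of Rag1 at chr2:101649533-101649652 (minus strand), that of Lck before the outer of its 2 starts at chr4:129573642-129573761 (minus strand) and that of Lax1 at chr1:133690109-133690228 (minus strand).
Dntt: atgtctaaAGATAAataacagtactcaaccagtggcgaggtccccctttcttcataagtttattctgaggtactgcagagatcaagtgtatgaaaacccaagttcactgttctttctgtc
Rag1: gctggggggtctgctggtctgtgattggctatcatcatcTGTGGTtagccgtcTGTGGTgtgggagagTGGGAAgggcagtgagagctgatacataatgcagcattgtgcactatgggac
Lck: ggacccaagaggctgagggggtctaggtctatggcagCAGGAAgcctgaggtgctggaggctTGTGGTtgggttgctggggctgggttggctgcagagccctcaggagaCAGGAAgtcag
Lax1: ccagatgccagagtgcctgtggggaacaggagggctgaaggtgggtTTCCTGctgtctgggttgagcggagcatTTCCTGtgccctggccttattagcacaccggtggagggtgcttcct
The 7 members have 9 windows of 250 bases before a start, since Lck and Lax1 have 2 starts each. The RUNX letters TGTGGT were found in 4 of the 9 windows (of Lax1, Lck and Rag1) and in 14% of all 32851 RefSeq windows. The ETS letters CAGGAA were found in 7 of 9, against 25.7% of all windows. The Ikaros letters TGGGAA were found in 3 of 9, against 21.6%. For the E2A-type E-box CAGGTG the figures were 4 of 9 and 17.2%. For the GATA letters AGATAA they were 2 of 9 (of Dntt and Lax1) and 9.99%. The general E-box CANNTG, which includes CAGGTG, occurred in 8 of 9 windows and in 66.2% of all windows. The NF-kB motif occurred in 1 window, that of Ltb, and in 0.356% of all windows. Windows of the same gene are not independent. These are letter matches in a window and say nothing of binding.

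MicroRNAs act by pairing their seed, bases 2 to 8, with sites in the 3′ untranslated region of target messages, which are then usually lowered. The arms of miR-139, encoded at chr7:101475382-101475403 (5p) and chr7:101475418-101475439 (3p) on the plus strand, are printed with the seed in capitals.
mmu-miR-139-5p: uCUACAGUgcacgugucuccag
mmu-miR-139-3p: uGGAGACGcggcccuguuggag
A match to the 5p seed stood in the longest annotated 3′ untranslated region of 2 of the 10 members, Rag1 and Ccr9, and in 11.4% of 21173 genes. A match to the 3p seed stood in 0 of 10 members and in 3.59% of genes. Both 5p matches are printed with their neighbouring bases and the match in capitals.
Rag1: gggaccagtgACTGTAGctgatgaaaa
Ccr9: agcctcccacACTGTAGtgaccgcctt
Dntt, Lck, Lax1 and Tox, the members called in miR139-KD libraries, carry neither match in these annotated regions.

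Libraries held between 9.87 M and 47.3 M gene counts (M, mega), with the deepest libraries in the PUS10-OE experiment. Pus10 itself averaged 257 ± 23.7 CPM (counts scaled to a common library size) in PUS10-OE and 75.9 ± 20.2 CPM in Vector libraries (SD, n = 3 each). Even this rise did not pass the test in that experiment (log2 fold change 1.76, edgeR adjusted p = 0.278). Pus10 averaged 35.2 ± 1.31 CPM in libraries labelled Pus10-KO and 28.4 ± 7.68 CPM in Pus10-WT, so the counts per gene do not show the loss that the label names. Which exons the allele removes is not given, and counts per gene cannot show it; Pus10-KO below means the libraries so labelled. All 12 stem cell markers examined had counts in every group. Levels below are CPM normalised by TMM within each experiment and are given in order of replicate number; a gene was called when its Benjamini-Hochberg adjusted p, from edgeR's quasi-likelihood test over all genes tested, was under 0.05. Libraries of Smart-seq2 cDNA do not keep the strand, so reads of overlapping genes cannot be told apart, and in bulk libraries fewer cells of a type and less RNA per cell cannot be told apart either.

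Dntt encodes TdT, the polymerase that adds untemplated bases at the joints of antigen receptor genes. It lies at chr19:41029275-41059525 (ENSMUSG00000025014.13, plus strand, GRCm38). In miR139-KD libraries it stood at 104, 5.16, 146, 66.3, 123 and 127 CPM, against 706, 377, 715, 427, 582 and 809 CPM in NTC libraries. Every miR139-KD library was below every NTC library, and replicate 2 of miR139-KD was far below its group. The means were 95.3 ± 51.8 CPM in miR139-KD and 603 ± 172 CPM in NTC (SD, n = 6 each) (log2 fold change -2.66, SE 0.539, edgeR adjusted p = 0.0218). The adjusted p moved to 0.0504 without replicate 1 or without replicate 4 of miR139-KD, and to 0.0697 with no filter on low counts.

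In the PUS10-OE experiment Dntt had 0 counts in all 3 PUS10-OE libraries, where 3 counts over the group would be 0.0245 CPM, against 5.59, 0.957 and 1.53 CPM in Vector libraries. Set against that floor it was at least 110-fold lower in PUS10-OE, a bound of 50.8-fold without replicate 1 of Vector, with an edgeR adjusted p of 0.338 and a DESeq2 adjusted p of 6.09e-06. The call thus turned on the tool, and over the 13 alternatives run the adjusted p ranged from 6.09e-06 to 0.803. In Pus10-KO and Pus10-WT libraries Dntt had 0 counts throughout.

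Rag1 encodes the catalytic subunit of the recombinase that cuts antigen receptor genes, and lies at chr2:101638282-101649501 (ENSMUSG00000061311.6, minus strand). It stood at 1.10, 0, 3.58, 0, 6.57 and 0.352 CPM in miR139-KD libraries, against 10.3, 7.75, 15.3, 10.4, 9.04 and 14.0 CPM in NTC libraries. The groups did not overlap, and 2 of the 6 miR139-KD libraries had no count. The log2 fold change was -2.51 (SE 1.02), which was not called (edgeR adjusted p = 0.232; limma-voom adjusted p = 0.0379). In the other experiments Rag1 was not above 0.56 CPM in any library, with 1 PUS10-OE library and 1 Pus10-WT library holding any count.

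Lck encodes the Src family kinase that starts signalling from the T cell receptor, and lies at chr4:129548344-129573641 (ENSMUSG00000000409.14, minus strand). It stood at 0.799, 6.05, 7.24, 13.6, 3.21 and 5.89 CPM in miR139-KD libraries, against 62.1, 58.1, 57.2, 41.4, 50.6 and 52.4 CPM in NTC libraries. The highest miR139-KD library was thus well under the lowest NTC library. Lck averaged 6.14 ± 4.35 CPM in miR139-KD and 53.6 ± 7.25 CPM in NTC (log2 fold change -3.12, SE 0.455, edgeR adjusted p = 0.00226). It was called in 21 of 22 alternatives and in all 12 fits that left out 1 library.

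Outside that experiment Lck did not separate the groups. It stood at 29.4, 19.7 and 26.5 CPM in PUS10-OE libraries, against 21.1, 39.5 and 19.9 CPM in Vector libraries (log2 fold change -0.10, SE 0.300, edgeR adjusted p = 0.985). It stood at 26.8, 21.5 and 21.7 CPM in Pus10-KO libraries, against 16.4, 35.1 and 21.8 CPM in Pus10-WT libraries (-0.07, SE 0.349, edgeR adjusted p = 0.999). The intervals of the fold change, -0.68 to 0.49 and -0.75 to 0.62 on the log2 scale (95%, normal quantile), leave out a change of the size measured in miR139-KD.

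Lax1 encodes a membrane adaptor that dampens signalling in lymphocytes, and lies at chr1:133679091-133690108 (ENSMUSG00000051998.14, minus strand). It stood at 4.70, 3.15, 3.17, 3.49, 2.31 and 4.75 CPM in miR139-KD libraries, against 10.1, 30.7, 29.2, 16.2, 21.7 and 21.9 CPM in NTC libraries. The miR139-KD libraries lay close together and below all NTC libraries. The means were 3.59 ± 0.959 CPM in miR139-KD and 21.6 ± 7.77 CPM in NTC (log2 fold change -2.59, SE 0.354, edgeR adjusted p = 0.00148), and the call held in 22 of 22 alternatives. In PUS10-OE libraries Lax1 stood at 9.13, 6.75 and 19.0 CPM, against 17.7, 27.7 and 23.3 CPM in Vector libraries, and the groups overlapped (log2 fold change -0.98, SE 0.390, edgeR adjusted p = 0.577). In Pus10-KO libraries it stood at 56.6, 49.5 and 17.0 CPM, against 54.1, 44.8 and 44.0 CPM in Pus10-WT libraries (-0.22, SE 0.418, edgeR adjusted p = 0.999).

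Tox encodes a nuclear HMG-box protein needed for CD4 T cell development, and lies at chr4:6686353-6991557 (ENSMUSG00000041272.11, minus strand). It stood at 3.40, 4.52, 5.86, 4.99, 9.22 and 6.33 CPM in miR139-KD libraries, against 13.0, 17.2, 29.2, 10.4, 11.2 and 27.6 CPM in NTC libraries. No library of miR139-KD reached the lowest of NTC, though the gap was small. The log2 fold change was -1.66 (SE 0.382, edgeR adjusted p = 0.0325). This call held in 9 of 22 alternatives: it was lost without replicate 2, 3 or 6 of NTC and without replicate 1, 2, 3, 4 or 6 of miR139-KD, each left out alone, with adjusted p up to 0.0946.

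Tox also separated the groups of the PUS10-OE experiment, at 12.4, 14.1 and 8.99 CPM in PUS10-OE libraries against 18.1, 21.7 and 26.3 CPM in Vector libraries. The log2 fold change of -0.90 (SE 0.246) was not called by edgeR (adjusted p = 0.403) and had a DESeq2 adjusted p of 0.0492. In the third experiment Tox was more abundant than in the others and overlapped between groups, at 107, 128 and 102 CPM in Pus10-KO libraries against 91.7, 122 and 77.0 CPM in Pus10-WT libraries (0.21, SE 0.203, edgeR adjusted p = 0.959).

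Ltb encodes lymphotoxin beta, a membrane cytokine that lymphocytes use to shape lymphoid organs, and lies at chr17:35194439-35196320 (ENSMUSG00000024399.5, plus strand). It stood at 26.2, 45.9, 26.0, 43.5, 25.9 and 71.3 CPM in miR139-KD libraries, against 36.6, 21.2, 31.9, 69.3, 41.8 and 99.8 CPM in NTC libraries. The groups overlapped over most of their range, and the log2 fold change of -0.33 (SE 0.367, 95% interval -1.05 to 0.39) was not called (edgeR adjusted p = 0.747). In PUS10-OE libraries Ltb stood at 97.7, 119 and 157 CPM, against 162, 131 and 94.9 CPM in Vector libraries (-0.05, SE 0.229, edgeR adjusted p = 0.991). In Pus10-KO libraries it stood at 153, 104 and 158 CPM, against 162, 135 and 188 CPM in Pus10-WT libraries (-0.22, SE 0.201, edgeR adjusted p = 0.950). Per kilobase of exon Ltb had the highest level of the 10 genes in 4 of the 6 groups, with 82.1 CPM per kb in PUS10-OE and 85.3 in Vector, and with 91.3 in Pus10-KO and 107 in Pus10-WT. In miR139-KD the order was Dntt at 41.6 ± 22.6 CPM per kb and then Ltb at 26.3 ± 11.8 CPM per kb, within each other's spread. In NTC Dntt, at 263 ± 75.1 CPM per kb, was far above Ltb at 33.0 ± 19.2 CPM per kb and Lck at 18.3 ± 2.48 CPM per kb.

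**Figure D1:**
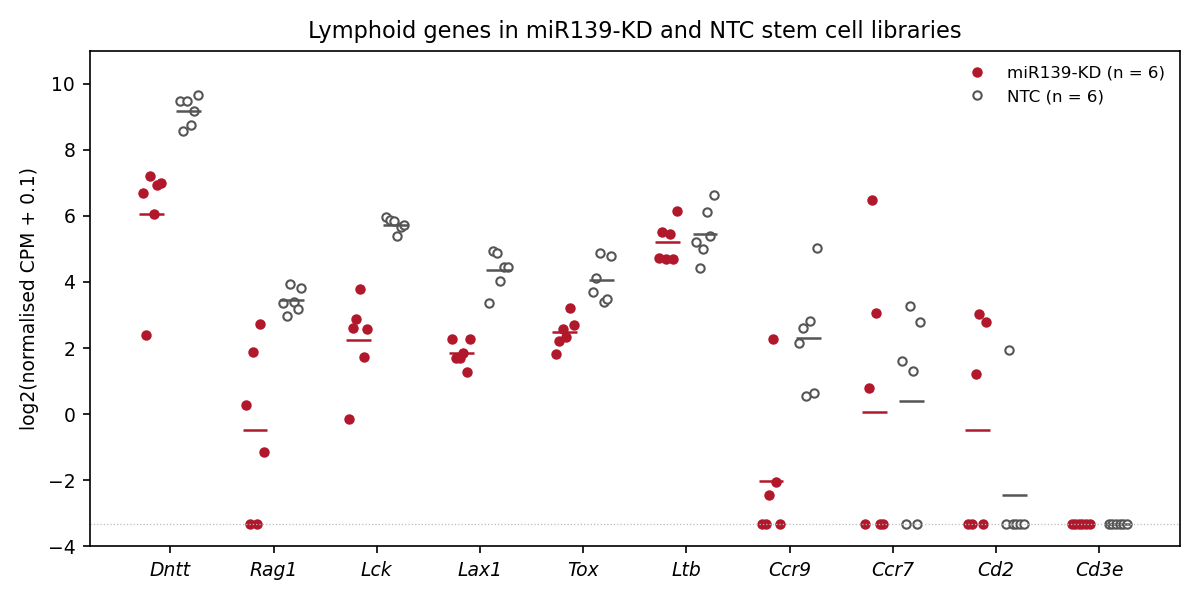
Normalised level of each gene in every miR139-KD library (filled red) and NTC library (open grey), as log2(CPM + 0.1) with a bar at the mean of these log values; the dotted line marks 0 counts. Dntt, Rag1, Lck, Lax1 and Tox do not overlap between the groups, and Ltb does. Of all genes tested, 1.78% were lower in miR139-KD with no overlap. Ccr7 has counts in 3 miR139-KD and 4 NTC libraries, and Cd2 in 3 and 1.

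The homing receptors varied widely among libraries of the same group. Ccr9, the receptor for the thymic chemokine CCL25, lies at chr9:123678439-123784330 (ENSMUSG00000029530.16, plus strand), and 21.5% of its exon bases are shared with other annotated genes. It stood at 0, 0, 0.0814, 4.74, 0.140 and 0 CPM in miR139-KD libraries, against 4.37, 5.94, 1.36, 6.88, 1.45 and 32.6 CPM in NTC libraries. Of the miR139-KD libraries, replicate 4 was inside the NTC range and the others below it. The log2 fold change of -3.39 (SE 1.42) was not called (edgeR adjusted p = 0.248), and without replicate 4 of miR139-KD it was -7.26 with an adjusted p of 0.0121. In Pus10-KO libraries Ccr9 stood at 3.29, 0.675 and 0 CPM, against 0, 4.41 and 0 CPM in Pus10-WT libraries, and in the PUS10-OE experiment 1 Vector library held all of its counts.

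Ccr7, the receptor for the chemokines CCL19 and CCL21, lies at chr11:99144196-99155077 (ENSMUSG00000037944.8, minus strand). It stood at 0, 1.61, 89.6, 8.31, 0 and 0 CPM in miR139-KD libraries, against 2.94, 0, 9.54, 2.39, 0 and 6.82 CPM in NTC libraries. A single library, replicate 3 of miR139-KD, set its log2 fold change, which was 2.20 with it (SE 1.66, edgeR adjusted p = 0.585) and -0.85 without it. In Pus10-KO libraries Ccr7 stood at 6.09, 0 and 3.69 CPM, against 9.02, 0.189 and 2.62 CPM in Pus10-WT libraries, and in the PUS10-OE experiment 1 Vector library had 1.18 CPM and all others 0.

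Cd2 and Cd3e are surface proteins of T cells, Cd2 an adhesion receptor and Cd3e an invariant chain of the receptor complex. Cd2 (chr3:101275899-101287939, ENSMUSG00000027863.8, minus strand) stood at 0, 0, 2.20, 7.98, 0 and 6.86 CPM in miR139-KD libraries, against 3.77 CPM in replicate 2 and 0 in the other NTC libraries. It had too few counts to be tested there. In Pus10-KO libraries it stood at 11.6, 2.50 and 0 CPM, against 13.6, 6.12 and 0 CPM in Pus10-WT libraries (log2 fold change -0.49, SE 1.98, edgeR adjusted p = 0.999), and it had 0 counts in the PUS10-OE experiment. Cd3e (chr9:44998740-45009627, ENSMUSG00000032093.7, minus strand) had 0 counts everywhere; in the deepest group, PUS10-OE, 3 counts over the group would be 0.0245 CPM.

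**Figure D2:**
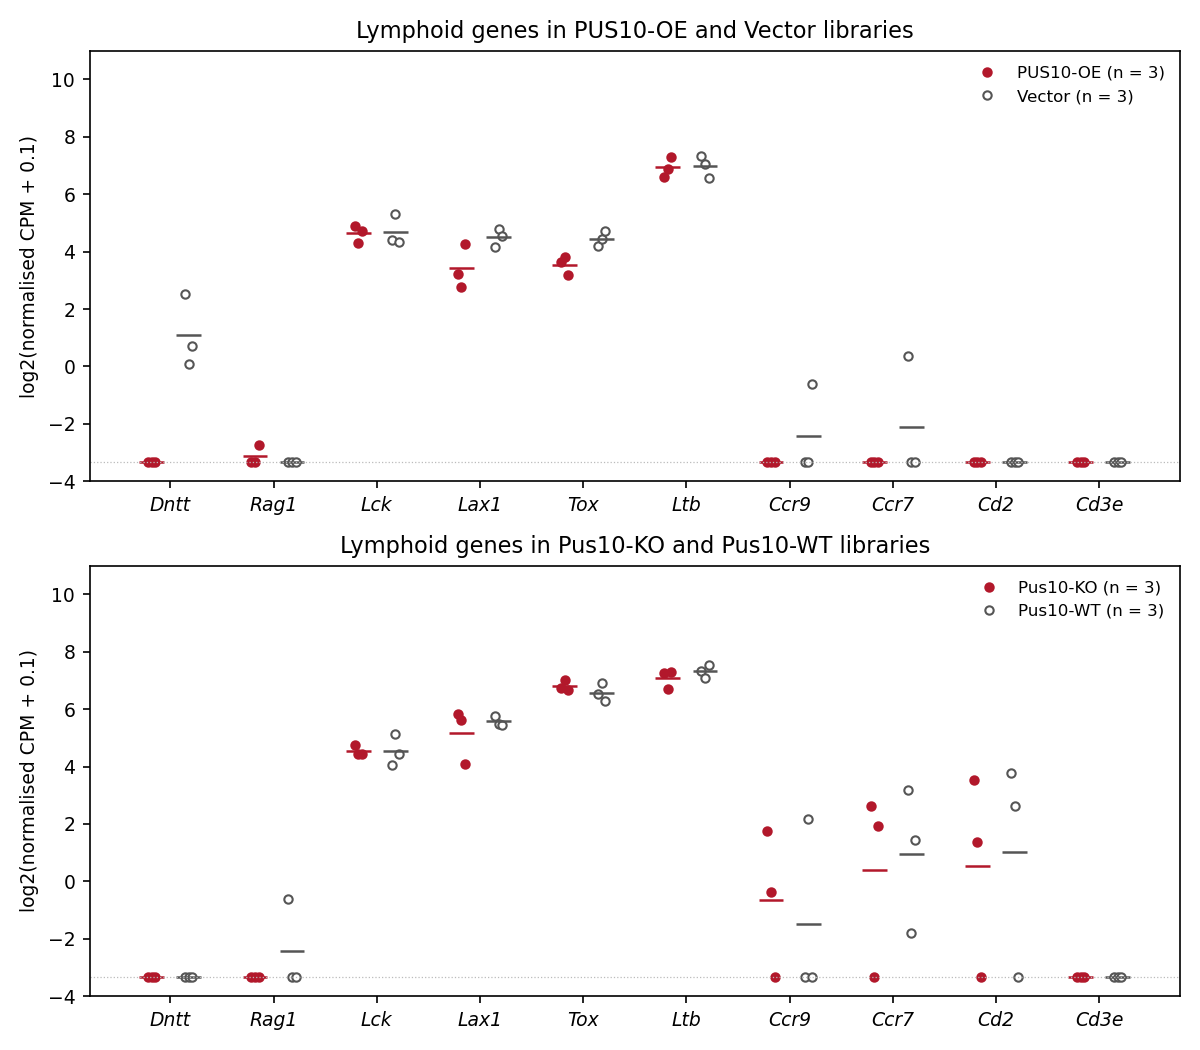
Normalised level of each gene, as log2(CPM + 0.1), in PUS10-OE (filled red) and Vector (open grey) libraries above, and in Pus10-KO (filled red) and Pus10-WT (open grey) libraries below, with bars at the mean of the log values and 0 counts at the dotted line. Tox and Dntt separate the PUS10-OE and Vector libraries, and none of the 10 genes separates the Pus10-KO and Pus10-WT libraries. Of all genes tested, 6.75% were lower in PUS10-OE with no overlap, and 6.79% in Pus10-KO.

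In miR139-KD against NTC, 8 of the 10 genes passed the filter on low counts. Of these, 4 were called, all lower, by edgeR and likewise by DESeq2. Among all 13295 genes tested, edgeR called 2.72%, with 1.31% called lower. DESeq2 called 6.67% of the 16186 genes to which it gave an adjusted p. In 5 (Dntt, Rag1, Lck, Lax1 and Tox) the groups did not overlap, with miR139-KD lower, as in 1.78% of all genes. The median log2 fold change over these 8 was -2.55 and over all genes 0.02. The filter asks for counts in as many libraries as a group holds, so a gene may pass through 1 group alone, and this median is only a description. The 10 genes were also chosen with earlier results of these data known. The shares beside them are therefore a description and no test of the set. In PUS10-OE against Vector 5 genes were tested and 0 called by edgeR, where 0% of 14834 genes were called and 1215 had an unadjusted p under 0.05, among them 3 of the 5. DESeq2 called 2 of the 10 genes (Dntt and Tox) and 1.44% of the 17277 genes to which it gave an adjusted p. Both genes whose groups did not overlap, Dntt and Tox, were lower in PUS10-OE, as were 6.75% of all genes. In Pus10-KO against Pus10-WT 7 genes were tested, and 0 were called by edgeR or by DESeq2. Of these 7, 0 had an unadjusted edgeR p under 0.05, and none separated the groups. Over all genes edgeR called 0.0614% of 14657, and 6.79% were lower with no overlap. DESeq2 called 1.44% of the 16178 genes to which it gave an adjusted p.

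Whether the experiments differed in these effects was tested in 1 fit of all 6 groups, for members with counts in all 4 groups of a pair of experiments. The effect of miR139-KD on Lck was lower than that of Pus10-KO by 3.08 on the log2 scale, an estimate of -3.08 (SE 0.655, 95% interval -4.37 to -1.80, edgeR adjusted p = 0.0398), where 0.294% of 17664 genes were called. The call held in 5 of 18 fits that left out 1 library. For Lax1 the same difference was -2.41 (SE 0.550, edgeR adjusted p = 0.0622) and for Tox -1.90 (SE 0.462, adjusted p = 0.0920), both not called by edgeR and both called by DESeq2 (adjusted p = 0.00203 and 0.00603). Between miR139-KD and PUS10-OE the difference for Lck was -3.05 (SE 0.653, edgeR adjusted p = 0.0784; DESeq2 adjusted p = 0.000447), and 0.051% of genes were called. Lax1 (-1.63, adjusted p = 0.367) and Tox (-0.79, adjusted p = 0.688) were not called there. Between PUS10-OE and Pus10-KO no member was called and 0.0226% of genes were. Tox had the lowest p of the 4 in that comparison (-1.11, SE 0.525, adjusted p = 0.847).

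**Figure D3:**
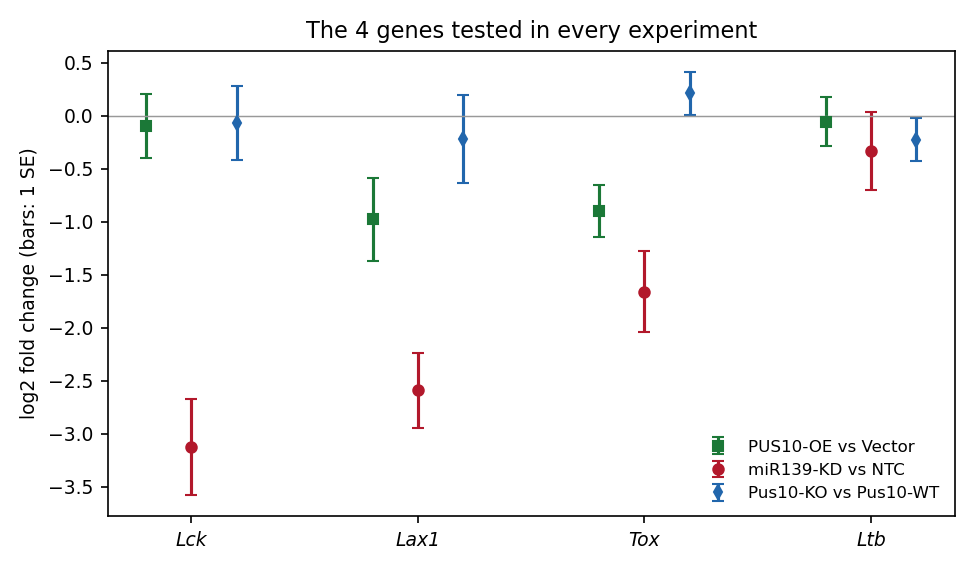
Log2 fold changes (bars, 1 SE) of the 4 genes tested in every experiment, for PUS10-OE over Vector (squares), miR139-KD over NTC (circles) and Pus10-KO over Pus10-WT (diamonds). Lck, Lax1 and Tox are lowest in miR139-KD, at -3.12, -2.59 and -1.66, while all 3 values for Ltb lie between -0.33 and -0.05.

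The control groups themselves held very different amounts of these genes. Dntt averaged 603 CPM in NTC, 2.69 CPM in Vector and 0 in Pus10-WT, and Rag1 averaged 11.1, 0 and 0.187 CPM in the same groups. Tox ran the other way, at 18.1 CPM in NTC, 22.0 CPM in Vector and 96.7 CPM in Pus10-WT, and Ltb averaged 50.1, 129 and 162 CPM. Lck was within 24.4 to 53.6 CPM in all 3. The experiments were normalised separately and share no libraries, so experiment and control type cannot be told apart and these levels were not tested.

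The wider lymphoid programme in miR139-KD libraries was read from gene lists around each role. Of all 13295 genes tested there, edgeR called 2.72%, with 1.31% lower, and the median log2 fold change was 0.02. Of 21 tested lymphoid priming genes 5 fell and 0 rose (median log2 fold change -0.58). Flt3, the cytokine receptor of lymphoid-primed progenitors, averaged 40.7 ± 10.2 CPM in miR139-KD and 142 ± 28.6 CPM in NTC (-1.80, SE 0.179, edgeR adjusted p = 0.000352). Satb1, a chromatin organiser of lymphoid progenitors, averaged 25.6 and 84.5 CPM (-1.72), and Blnk, an adaptor of the B cell receptor, 16.4 and 119 CPM (-2.86). Cd27, a TNF receptor family member, averaged 79.5 and 167 CPM (-1.07, edgeR adjusted p = 0.0310), in each case with miR139-KD before NTC. In none of 12 fits that left out 1 library were the calls of Flt3, Satb1 and Blnk lost, and that of Cd27 was lost in 5.

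Of the partners of Dntt and Rag1 in joining antigen receptor genes, 2 of 13 tested fell and 0 rose (median -0.17). Hmgb1, a DNA-bending cofactor of the recombinase, averaged 460 ± 57.1 CPM in miR139-KD and 695 ± 80.5 CPM in NTC (-0.60), and Xrcc6, the Ku70 subunit that holds broken ends, 99.7 ± 29.3 CPM in miR139-KD and 183 ± 38.2 CPM in NTC (-0.87), a call lost in 6 of 12 fits without 1 library. Rag2, the partner of Rag1, stood at 0 to 10.1 CPM in miR139-KD and at 11.6 to 27.6 CPM in NTC, with a log2 fold change of -2.44 (SE 0.904) that was not called (edgeR adjusted p = 0.186). Rag2 is on both lists.

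Genes around Lck and Lax1 did not move as one. Of 11 tested T cell receptor signalling genes 1 rose and 1 fell (median -0.25). Fyn, which serves the T cell receptor beside Lck, rose to 64.4 ± 9.85 CPM in miR139-KD, against 41.1 ± 6.21 CPM in NTC (0.65, edgeR adjusted p = 0.0400). Ubash3a, a negative regulator of the receptor, fell to 23.9 ± 7.16 CPM in miR139-KD, against 48.9 ± 14.6 CPM in NTC (-1.03, edgeR adjusted p = 0.0388). Both calls were lost in 8 of 12 fits without 1 library. The adaptor Lcp2 had a log2 fold change of 0.53 (adjusted p = 0.0672). Of 8 tested Src family kinases and their regulator Csk, Fyn was the 1 called (median 0.20), and Csk, which restrains Lck, averaged 242 CPM in miR139-KD and 179 CPM in NTC (0.44, adjusted p = 0.0693). Fyn and Csk are on both of these lists, so the call of Fyn is the same call.

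Transcription factors of the T lineage gave 1 higher and 0 lower of 11 tested (median -0.06). Runx1, a factor shared by stem cells and lymphocytes, rose to 134 ± 9.50 CPM in miR139-KD, against 83.2 ± 22.5 CPM in NTC (0.68, edgeR adjusted p = 0.0320), a call lost in 9 of 12 fits without 1 library. Ets1 averaged 17.3 CPM in miR139-KD and 53.3 CPM in NTC (-1.62, adjusted p = 0.0817), and Id3, an inhibitor of E proteins, 10.8 CPM in miR139-KD and 62.1 CPM in NTC (-2.51, adjusted p = 0.11), neither called.

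Of the SLAM and CD2 family, to which Cd2 belongs, 1 of 7 tested rose and 1 fell (median -1.88). Cd48, a ligand of Cd2 that stem cells lack and multipotent progenitors carry, fell to 31.9 ± 12.4 CPM in miR139-KD, against 131 ± 39.7 CPM in NTC (-2.04, edgeR adjusted p = 0.00144), and no fit without 1 library lost the call. Slamf1, the stem cell marker CD150, rose to 28.9 ± 10.3 CPM in miR139-KD, against 11.2 ± 3.92 CPM in NTC (1.36, adjusted p = 0.0325), a call lost in 9 of 12 such fits. Slamf6 averaged 4.09 CPM in miR139-KD and 44.6 CPM in NTC (-3.43, adjusted p = 0.0623). Of 10 tested chemokine and homing receptors 1 fell and 0 rose (median -0.40): Selplg, the P-selectin ligand, averaged 110 ± 24.5 CPM in miR139-KD and 187 ± 37.4 CPM in NTC (-0.76, edgeR adjusted p = 0.0217; 0.0503 without replicate 3 of NTC). Of 11 tested partners of Ltb in the lymphotoxin and TNF pathway 0 were called (median -0.25); the receptor Ltbr averaged 29.9 CPM in miR139-KD and 19.1 CPM in NTC (0.65, adjusted p = 0.322), and Nfkb2, which acts below it, 22.5 CPM in miR139-KD and 11.1 CPM in NTC (1.02, adjusted p = 0.168).

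**Figure D4:**
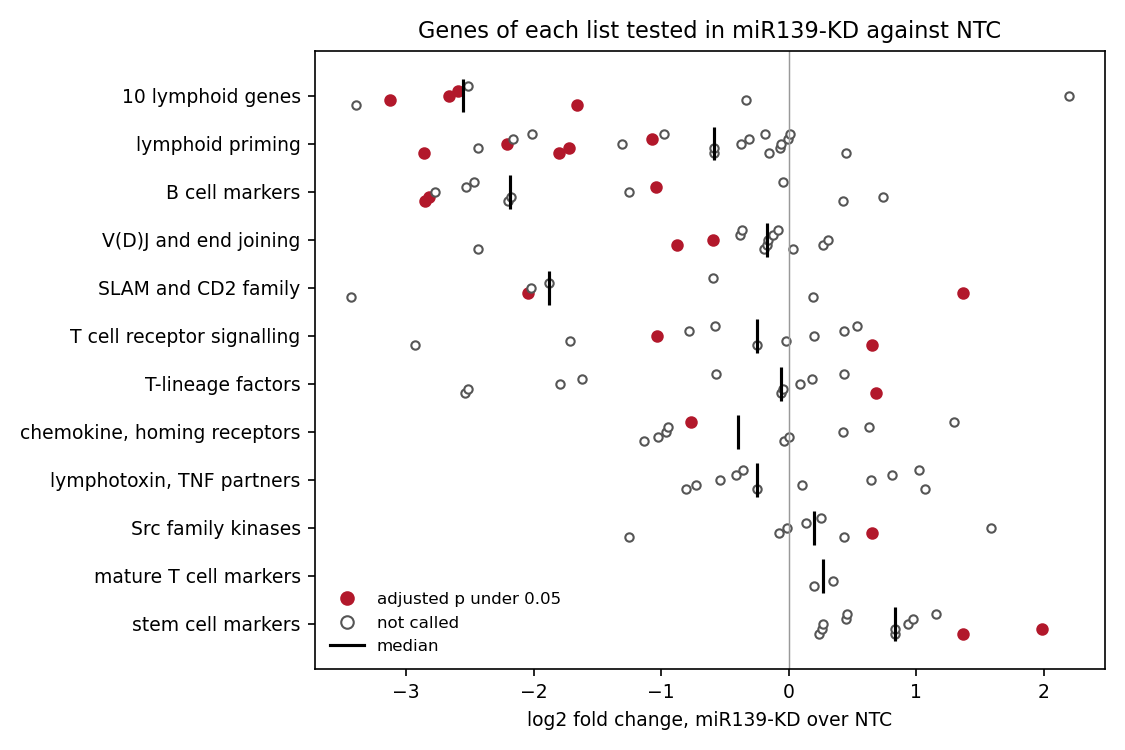
Log2 fold change, miR139-KD over NTC, of every tested gene in each list (filled red, called; open grey, not called; black line, median of the list). The 10 lymphoid genes, lymphoid priming genes and B cell markers hold calls on the lower side and none on the higher side. So do the V(D)J and end joining genes and the chemokine and homing receptors. Of all genes tested, 2.72% were called, with 1.31% lower. The SLAM and CD2 family holds 1 call on each side (median -1.88). The lists around T cell receptor signalling, the Src family and T-lineage factors have medians between -0.25 and 0.20.

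In the other experiments 0 genes of these 8 lists were called by edgeR, where 0% of all genes in PUS10-OE and 0.0614% in Pus10-KO were called. With so few calls over all genes, the 0 says little about these lists. The priming list had a median log2 fold change of -0.33 over 17 tested genes in PUS10-OE and of -0.06 over 21 in Pus10-KO. Its gene with the lowest p in PUS10-OE was the RUNX factor Runx2, at 26.8 ± 3.48 CPM in PUS10-OE and 48.8 ± 6.59 CPM in Vector (-0.86, edgeR adjusted p = 0.338). In Pus10-KO it was Ly6d, a surface protein that marks B-biased lymphoid progenitors, with 0 counts in all 3 Pus10-KO libraries and 10.7 to 52.7 CPM in Pus10-WT libraries (edgeR adjusted p = 0.119). Ets1 averaged 41.0 CPM in Pus10-KO and 82.7 CPM in Pus10-WT (-1.01, adjusted p = 0.497), and Selplg 199 CPM in PUS10-OE and 253 CPM in Vector (-0.35, adjusted p = 0.403).

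Markers of other blood cells moved with some of these results. Beside the calls given here, edgeR called 2.72% of all genes in miR139-KD against NTC, with 1.31% lower. The 14 B cell markers summed to 240 to 15340 CPM in miR139-KD and 1691 to 16930 CPM in NTC libraries. Without the immunoglobulin genes Ighm and Igkc the sums were 29.7 to 725 CPM in miR139-KD and 1265 to 2705 CPM in NTC, with no overlap. Of 12 tested B markers 3 fell (Cd79a, Cd79b and Pax5), and none of the 14 was at 0 in all libraries of either group. The call of Cd79b was lost in 10 of 12 fits that left out 1 library, that of Pax5 in 3 and that of Cd79a in 0. The part of the B markers in the lower Dntt, Rag1 and Blnk was not tested. Of the 16 mature T cell markers, 9 had a count in miR139-KD and 12 in NTC. Cd3g, Trac, Cd8a and Cd8b1 had 0 counts in all libraries of both groups. The adaptor Lat was the 1 T marker with a mean of at least 10 CPM. After Lat, the highest in NTC were Trbc1, at a mean of 9.42 CPM (0 to 31.05), and Zap70, at 4.61 CPM (0 to 11.69). In miR139-KD they were Thy1, at a mean of 4.44 CPM, and Cd247, at 1.75 CPM. The T marker sums overlapped, at 64.1 to 126 CPM in miR139-KD and 82.0 to 137 CPM in NTC. NK cell markers summed to 196 to 395 CPM in miR139-KD and 307 to 502 CPM in NTC, nearly all from Nkg7, with Gzma at 0 in both. Megakaryocyte markers went the other way: 6 of 8 tested rose, and the list summed to 1260 to 2914 CPM in miR139-KD and 117 to 372 CPM in NTC. Of these 6, the calls of Pf4, Itga2b, Gp9 and Vwf were lost in none of 12 fits without 1 library, that of Gp1ba in 10 and that of Itgb3 in 11. Of the 12 stem cell markers, 2 rose, Slamf1 (also on the SLAM list) and Ctnnal1, and all 12 had a fitted log2 fold change above 0 (median 0.83). These markers summed to 786 to 974 CPM in miR139-KD and 501 to 807 CPM in NTC. Granulocyte and monocyte markers summed to 1278 to 14920 CPM in miR139-KD and 1545 to 15380 CPM in NTC, with 1 of 11 lower (Csf3r). Erythroid markers summed to 522 to 8817 CPM in miR139-KD and 170 to 8900 CPM in NTC, with 0 of 9 called. The part of these markers in the values of the 10 genes was not tested.

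Replicates 5 and 6 of both groups held the highest B marker sums within miR139-KD and within NTC. Without Ighm and Igkc the highest were replicates 5 and 3 of miR139-KD and replicates 6 and 3 of NTC. Without replicates 5 and 6 of both groups, a setting chosen after the data were seen, the fold changes of the 4 called genes were about as large as with every library. The libraries left still did not overlap in B marker sums without Ighm and Igkc. These sums were 29.7 to 530 CPM in miR139-KD and 1265 to 2012 CPM in NTC. The exclusion therefore cannot test the part of the B markers. This setting kept the call of Lax1 (-2.58, edgeR adjusted p = 0.0305) and lost that of Lck (-2.98, adjusted p = 0.0521), Dntt (-2.80, adjusted p = 0.136) and Tox (-1.90, adjusted p = 0.0791). Over all genes 151 were then called, where 361 were called with every library. Without the library least correlated with its group, replicate 1 of miR139-KD and replicate 6 of NTC, Lck (-2.90, adjusted p = 0.00249) and Lax1 (-2.67, adjusted p = 0.00687) were called and Dntt (-2.58, adjusted p = 0.0938) and Tox (-1.38, adjusted p = 0.118) were not.

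In the third experiment the summed B markers were lower in Pus10-KO, at 112 to 114 CPM in Pus10-KO and 15620 to 26780 CPM in Pus10-WT libraries. Without Ighm and Igkc the sums were 67.1 to 79.0 CPM in Pus10-KO and 140 to 165 CPM in Pus10-WT. Ighm averaged 34.8 CPM in Pus10-KO and 10370 CPM in Pus10-WT, and Cd79a had 0 counts in Pus10-KO and 36.3 ± 4.43 CPM in Pus10-WT. Both were called lower, where edgeR called 0.0614% of all genes. Plasma cell markers summed to 229 to 358 CPM in Pus10-KO and 1538 to 4527 CPM in Pus10-WT, with 1 of 5 tested called lower. This was Jchain, at 1.62 CPM in Pus10-KO and 2150 CPM in Pus10-WT (edgeR adjusted p = 0.0238). Which cells these counts came from was not tested. The mature T cell markers summed to 108 to 129 CPM in Pus10-KO and 68.3 to 175 CPM in Pus10-WT. Pax5 and Igll1, markers of early B-lineage cells, were at 0 in all 6 libraries, as was Dntt. In the PUS10-OE experiment the B markers summed to 48.5 to 92.5 CPM in PUS10-OE and 91.7 to 129 CPM in Vector libraries, mostly Cd79b and Ighm.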

How the data were processed

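RNA was measured in 24 libraries of sorted mouse HSCs made by Smart-seq2, per the labels' protocols. The authors deposited whole-number counts per gene for 55487 Ensembl IDs, not normalized, and 5 summary entries, which entered neither library sizes nor tests. Ambiguous reads made up 6.53 to 20.1 percent of the deposited counts. Alignment to mm10 with HISAT2 2.1.0, counting with HTSeq 0.11.2 and DESeq2 are named in the submitters' processing notes; which gene annotation they counted on was not stated there. Symbols for 55394 IDs, coordinates and exon lengths came from GENCODE M21 (GRCm38), promoters and microRNAs from RefSeq.

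Groups came from the titles. Each experiment was fitted alone with edgeR 4.0.16 in R 4.3.3 (filterByExpr, TMM, robust quasi-likelihood F test, two-sided, Benjamini-Hochberg over all genes tested, threshold 0.05). SEs were derived from the fold change and F, intervals use a normal quantile, and floors are 3 counts over a group; both cover counting or library spread only, since reads carry no molecular identifiers. No 2 libraries of a group agreed within counting error (42 pairs, chi-square at least 30.1 per degree of freedom). Alternatives were DESeq2 1.42.0, limma-voom with sample weights (limma 3.58.1), RLE scaling, scaling by library size, testing all genes, testing genes of at least 10 CPM, all groups in 1 fit, the replicate number as a block, and each library left out. Python 3.11.15 with matplotlib 3.10.9 drew the plots.

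The 10 genes and all lists were chosen with earlier results of these data known. Of each list the text names up to 3 tested genes with the lowest p in miR139-KD against NTC and the lowest in the other experiments; further called genes of a list were named after their values were seen. One called gene of the lymphoid priming list is counted but not reported here.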

Additional observations from a re-analysis of the deposited data

Results flagged for a closer look

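In 4 cases a gene had 1 library far from the rest of its group, by Dixon's criterion (0.625 of the range for 6 libraries, 95%), among 18 groups examined. Chance flags about 1 in 20 groups if values are normally distributed. Levels with many zeros are not, so the chance rate here is not known and the flags are only a description. Ccr9 in miR139-KD was at 4.74 CPM in replicate 4, with the next library at 0.140 CPM. Ccr7 in miR139-KD was at 89.6 CPM in replicate 3, with the next at 8.31 CPM. Ccr9 in NTC was at 32.6 CPM in replicate 6, with the next at 6.88 CPM. Cd2 in NTC was at 3.77 CPM in replicate 2 and at 0 in the others. None of the 3 genes was called.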

How the results depend on the processing

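Of the genes called in miR139-KD, Lax1 kept its call under every alternative run, Lck under all but 1, Dntt under 17 of 22 and Tox under 9 of 22. Genes called in miR139-KD numbered 361, with 1079 by DESeq2, 792 with all 6 groups in 1 fit, and 151 or 212 without the 4 libraries highest in summed B markers or the least correlated pair. Of the 10 genes, 4 were called, 2 with no filter and 1 or 2 under those same 2 exclusions, both chosen after seeing the data. PUS10-OE gave 0 genes by edgeR, 248 by DESeq2 (2 of the 10), 5 with all groups in 1 fit and 9 with a 10 CPM filter. Pus10-KO gave 9, with 233 by DESeq2, 15 with all groups in 1 fit and 3 by limma-voom. For the difference between miR139-KD and PUS10-OE, DESeq2 and the 10 CPM filter each called 1 of the 10 genes instead of 0, and between miR139-KD and Pus10-KO 3 and 2 instead of 1.

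Same-numbered libraries did not deviate together (correlations -0.06 to 0.02 over 12 pairs; 3 of the 12 matched best with their own number). No pairing by number was thus seen, but correlations over many genes cannot exclude a weak pairing or one in few genes. The replicate block gave 188 genes in miR139-KD, 3 of the 10, and 2 genes in Pus10-KO; Tox then had an edgeR adjusted p of 0.104.

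With 1 library left out, genes called ranged from 196 to 340 in miR139-KD, from 0 to 10 in Pus10-KO and stayed at 0 in PUS10-OE. Of the 10 genes, 2 to 4 were called in miR139-KD, 0 to 1 in its difference from PUS10-OE and 0 to 2 in that from Pus10-KO. Fold changes that crossed 0 belonged to genes not called. In PUS10-OE these were Lck (-0.27 to 0.29) and Ltb (-0.27 to 0.14), in miR139-KD Ccr7 (-0.85 to 2.77). In Pus10-KO they were Lck (-0.29 to 0.29), Lax1 (-0.52 to 0.16), Ccr9 (-2.10 to 7.32), Ccr7 (-1.09 to 1.21) and Cd2 (-2.39 to 0.61). Differences between effects did so for Lck (-0.39 to 0.37) and Ltb (-0.0176 to 0.35) in PUS10-OE minus Pus10-KO, Ltb (-0.55 to 0.0156) in miR139-KD minus PUS10-OE, and Ltb (-0.37 to 0.20) and Ccr7 (-0.60 to 3.28) in miR139-KD minus Pus10-KO. Other settings turned the sign of Lck in Pus10-KO (0.0527 by limma-voom, 0.0019 by library size only), of Ccr9 there (1.57 by limma-voom, 1.22 with the block) and of Ltb in miR139-KD (0.086 without the least correlated pair); the cause was not tested. For Ccr9, Ccr7, Cd2 and Rag1 the spread among libraries is wide, and each has libraries with 0 counts.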
